A study of Mus musculus with 48 samples.

Results

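Gene expression in the liver of mice bred to lack hepatocyte angiotensinogen (Agt, the protein from which the angiotensin peptides are cut) was compared between thermoneutral housing (TN, 30 °C) and room temperature (RT, 20 to 22 °C). The comparison took every library titled as hepAGT-/- liver, 4 at TN (replicates 2, 4, 5 and 22) and 4 at RT (replicates 9, 10, 16 and 19), which is 8 of the 48 libraries of the series. The 4 TN and 4 RT livers of hepAGT+/+ littermates served as reference. Mice of both genotypes were male and shared a 14 h light and 10 h dark cycle and 12 weeks of a Western diet holding 21% milk fat and 0.2% cholesterol, so no group ate a control diet. Each library is labelled as a biological replicate of its own; the Cre driver, the exons removed, the strain and the age of the animals are not given in the sources used here.

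A mouse at room temperature spends much of its energy on keeping warm, and at thermoneutrality this demand falls away. The liver that meets these conditions is built mainly of hepatocytes, with Kupffer cells (its resident macrophages), sinusoidal endothelial cells and matrix-making stellate cells between them, and a fatty liver also takes up monocytes and lymphocytes from blood. Male mouse hepatocytes secrete major urinary proteins (Mup), small lipocalins that carry pheromones into urine, and their genes are known to follow the male pattern of growth hormone release.

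Libraries held 25.8 to 31.5 M counts (megacounts) at RT and 27.4 to 33.0 M at TN in hepAGT-/- liver. The unit of level is CPM (a gene's count divided by the TMM-scaled library total in M), and the values of single libraries follow the order of replicates above, 9, 10, 16 and 19 at RT and 2, 4, 5 and 22 at TN. Agt itself stood at 174, 202, 150.2 and 143 CPM at RT and at 164, 172, 125 and 207 CPM at TN, with a log2 change of -0.0018 (SE 0.18, adjusted p 0.998), and all 8 libraries lay below the hepAGT+/+ livers, whose means were 368 ± 75.5 CPM at RT and 409.5 ± 86.5 CPM at TN (SD, n = 4). Transcript of the gene was thus still counted in every hepAGT-/- liver; the counts cover the whole gene and do not separate removed from kept exons. Hepatocyte markers summed to 93901 to 110000.0 CPM at RT and 98077 to 112750.0 CPM at TN, while pancreatic acinar and skeletal muscle markers summed to at most 1.49 and 2.41 CPM in any of these 8 libraries. Adipocyte markers summed to 306 to 499 CPM at RT and 362 to 483 CPM at TN. Gpd1 was the most abundant of them, at up to 13850 counts in a hepAGT-/- library, so the sum is a weak measure of adipose RNA. RT replicate 19 stood apart in 2 defining markers that had no count in the other 7 libraries, Adipoq (78 counts) and Plin1 (151 counts). The median log2 change of the 8 adipocyte markers tested was -0.24, or 1.29 without that replicate, and the part of adipose RNA in the calls, of which 1 was made without replicate 19, was not tested.

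A gene was called when its p from edgeR's quasi-likelihood test, after Benjamini-Hochberg adjustment across the 17594 genes that entered the fit, was under 0.05. In hepAGT-/- liver 20 genes were called (0.114% of those tested), of which 18 were higher at TN (0.102%) and 2 lower (0.0114%). Fitted to the 8 hepAGT-/- libraries alone, the test called 13 genes, 7 higher and 6 lower, of which 5 were among the 20. The lowest p values belonged to Col4a1, a basement membrane collagen gene, and Smpd3, a sphingomyelinase gene, both higher at TN, and the 2 lower genes were the protease inhibitor Serpine2 and the urinary protein gene Mup9. In all 20 the 4 TN libraries lay wholly on one side of the 4 RT libraries. The 20 were chosen by a test on these same libraries, so this separation is largely built in and is no separate support. Over all genes tested the TN libraries lay wholly above in 4.35% and wholly below in 2.90%. Without adjustment, 1128 genes were higher (6.41%) and 721 lower (4.10%) at p under 0.05, and DESeq2 called all 20 among 310 higher (2.14% of the 14519 genes it gave an adjusted p) and 52 lower (0.358%).

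The calls depended on single libraries. No gene passed the edgeR test without RT replicate 9, TN replicate 4 or TN replicate 5 (1349, 1290 and 1586 genes at an unadjusted p under 0.05), and 1 did without RT replicate 19, whereas 121 were called without TN replicate 2 and 153 without TN replicate 22. Leaving out RT replicate 10 gave 16 genes, and RT replicate 16 gave 14. Col4a1, Smpd3 and Serpine2 were called in 4 of these 8 fits and most others of the 20 in 2 or 3, with adjusted p reaching 0.129 to 0.269. The plot of calls with each library left out shows this split of the TN group.

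**Figure D1:**
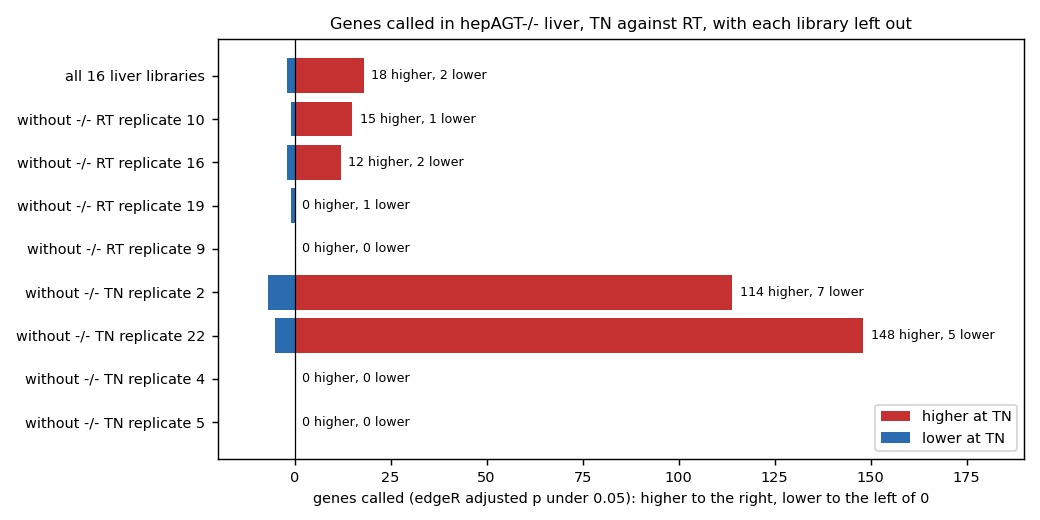
Number of genes called (edgeR adjusted p under 0.05) in hepAGT-/- liver between TN and RT, with all 16 liver libraries and with each of the 8 libraries left out; bars to the right count genes higher at TN, bars to the left genes lower at TN. Leaving out TN replicate 4 or 5 gives 0 calls, leaving out TN replicate 2 or 22 gives 121 and 153.

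The promoters of 4 called genes give a view of the start sites behind the comparison: Wfdc17 and Cmklr1, myeloid genes with the TN libraries wholly above, Apcs, the called acute-phase gene, and Mup9, the gene with the widest difference among the called ones. Shown are the 250 bases before the RefSeq start (GRCm38.p6), 5′ to 3′ on the gene's strand, in lower case. Capitals mark 2 searched motifs on either strand, GAGGAA, the core bound by ETS factors such as PU.1 of the myeloid lineage, and TTCNNNGAA, the spacing bound by STAT factors; no marked matches overlap. Wfdc17 lies at chr11:83703806-83704055 (+), Cmklr1 at chr5:113643604-113643853 (-), Apcs at chr1:172895055-172895304 (-) and Mup9 at chr4:60421953-60422202 (-).
Wfdc17: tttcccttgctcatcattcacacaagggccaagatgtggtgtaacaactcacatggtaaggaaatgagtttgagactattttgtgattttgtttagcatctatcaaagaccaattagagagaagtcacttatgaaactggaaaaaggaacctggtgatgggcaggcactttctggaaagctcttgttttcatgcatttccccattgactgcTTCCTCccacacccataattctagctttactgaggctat
Cmklr1: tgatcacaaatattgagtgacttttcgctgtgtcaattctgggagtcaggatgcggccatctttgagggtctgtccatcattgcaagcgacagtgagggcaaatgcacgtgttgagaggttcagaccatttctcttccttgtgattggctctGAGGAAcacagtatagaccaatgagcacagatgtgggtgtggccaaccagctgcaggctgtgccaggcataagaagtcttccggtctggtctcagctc
Apcs: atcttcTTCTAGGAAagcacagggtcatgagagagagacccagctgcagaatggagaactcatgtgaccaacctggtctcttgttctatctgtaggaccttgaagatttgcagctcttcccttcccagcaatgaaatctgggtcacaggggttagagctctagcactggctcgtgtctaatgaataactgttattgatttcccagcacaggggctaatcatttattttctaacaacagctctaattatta
Mup9: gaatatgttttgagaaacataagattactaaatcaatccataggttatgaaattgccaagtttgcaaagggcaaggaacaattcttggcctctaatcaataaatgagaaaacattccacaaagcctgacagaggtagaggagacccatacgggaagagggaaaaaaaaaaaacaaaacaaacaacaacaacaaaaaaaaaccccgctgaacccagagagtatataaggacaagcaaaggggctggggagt

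GAGGAA was found in 26.1% of the 11485 tested genes with such a window and in 5 of the 15 genes called higher that had one, namely AU020206, Arhgef2, Cmklr1, Syk and Wfdc17. TTCNNNGAA was found in 7.33% of tested genes and in 3 of the same 15, namely Apcs, Irf8 and 1810055G02Rik. A gene with several RefSeq starts was counted once if any window matched. By window, GAGGAA was found in 5 of the 22 from genes called higher (22.7%) and in 22.8% of the 14682 from tested genes. TTCNNNGAA was found in 3 of the 22 (13.6%) and in 6.08% of the 14682. Neither motif occurred before Mup9 or Serpine2. The higher genes printed, Wfdc17, Cmklr1 and Apcs, all hold a match. Col4a1, Cyth4, Myo1g, Rgs2, Soat1, Tmsb4x and Tnfaip3, also called higher, held neither motif. The matches are of letters in a window and describe no binding.

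Several called genes are known from macrophages or other blood-derived cells. Wfdc17, a secreted whey acidic protein gene of activated macrophages, measured 14.6, 18.1, 14.3 and 21.0 CPM at RT and 27.1, 64.0, 52.6 and 34.2 CPM at TN. It rose by a log2 of 1.39 (SE 0.24, adjusted p 0.0308). Cmklr1, the receptor for the chemoattractant chemerin on macrophages and dendritic cells, went from 1.62, 1.90, 1.19 and 1.62 CPM to 4.93, 6.07, 6.44 and 4.85 CPM, a log2 rise of 1.81 (SE 0.33, adjusted p 0.0308). Its 4 TN values lay close together, while those of Wfdc17 were highest in replicates 4 and 5.

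Irf8, a transcription factor that monocytes and dendritic cells need to form, measured 2.78, 4.36, 8.43 and 7.00 CPM at RT and 13.7, 19.0, 27.4 and 10.9 CPM at TN (log2 1.66, SE 0.30, adjusted p 0.0308). Syk, the kinase that carries signals from Fc and lectin receptors, measured 3.75, 7.20, 3.57 and 3.27 CPM and 8.37, 13.8, 14.8 and 9.84 CPM (log2 1.39, SE 0.27, adjusted p 0.0396), and RT replicate 10 came near the lowest TN library. Tmsb4x, whose thymosin holds actin monomers in motile cells, measured 129.6, 133, 128 and 143 CPM and 198, 364, 427 and 201 CPM (log2 1.16, SE 0.20, adjusted p 0.0308). Its RT values were nearly equal, and replicates 4 and 5 stood well above the other TN livers.

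Tnfaip3, the A20 enzyme that restrains NF-kappa-B signalling, measured 2.82, 2.74, 1.54 and 2.19 CPM at RT and 6.25, 8.45, 7.78 and 3.86 CPM at TN (log2 1.5, SE 0.29, adjusted p 0.0396). Rgs2, which shortens signalling by G proteins including those of angiotensin receptors, measured 2.01, 4.94, 2.83 and 4.31 CPM and 8.14, 15.3, 15.6 and 7.12 CPM (log2 1.71, SE 0.33, adjusted p 0.037). Myo1g, a membrane myosin of blood cells, Cyth4, an exchange factor for ARF proteins in leukocytes, and AU020206, a transcript of unassigned role, rose by log2 values of 2.05, 1.34 and 1.31. Each of these genes was lowest at TN in replicate 2 or 22. In whole tissue, more cells of a type and more RNA per cell cannot be told apart.

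Of the other called genes, Col4a1, which codes for a chain of basement membrane collagen and is made by endothelial and stellate cells, had the lowest p. It measured 16.8, 20.4, 18.9 and 14.7 CPM at RT and 33.6, 33.4, 32.3 and 33.2 CPM at TN, a log2 rise of 0.90 (SE 0.15, adjusted p 0.0284). The 4 TN values nearly coincided.

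Soat1, which esterifies cholesterol for storage in macrophages, measured 2.30, 3.13, 4.18 and 3.23 CPM at RT and 9.07, 10.5, 16.7 and 5.17 CPM at TN (log2 1.69, SE 0.32, adjusted p 0.0354). Smpd3, the neutral sphingomyelinase that makes ceramide at membranes, measured 4.86, 6.04, 3.67 and 4.23 CPM and 11.7, 15.8, 12.1 and 8.21 CPM (log2 1.35, SE 0.22, adjusted p 0.0284). Both were higher in every TN library, Soat1 most in replicate 5 and Smpd3 most in replicate 4. Apcs, the pentraxin serum amyloid P made by hepatocytes, measured 34.0, 28.1, 41.1 and 47.9 CPM and 75.6, 81.2, 67.1 and 102 CPM (log2 1.11, SE 0.21, adjusted p 0.0396), and here replicate 22 was the highest at TN. Cntnap1, known from the myelinated axon, rose by a log2 of 1.80 from 1.62, 1.13, 2.48 and 2.62 CPM to 5.43, 8.84, 5.75 and 7.22 CPM. Arhgef2, a microtubule-bound activator of RhoA, and 1810055G02Rik, of unassigned role and outside the naming rule, rose by 1.15 and 0.90.

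**Figure D2:**
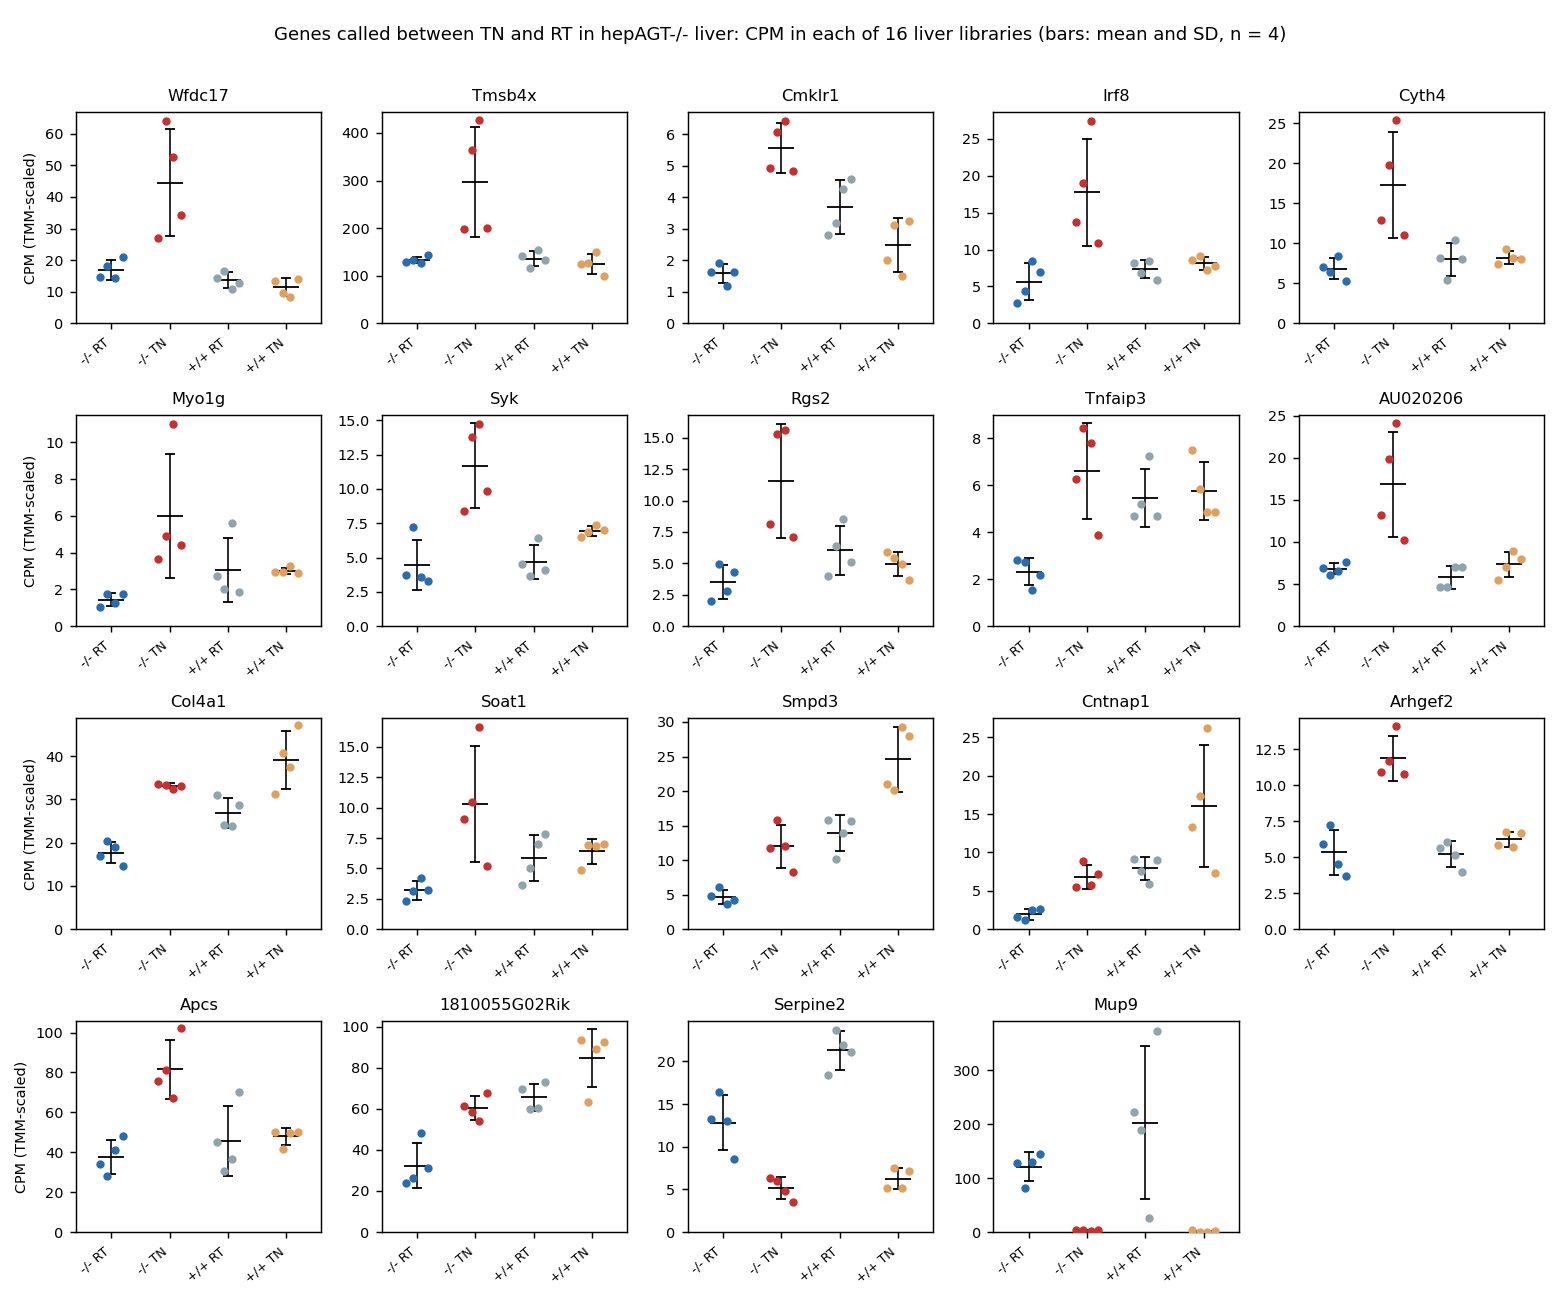
TMM-scaled CPM of 19 of the 20 called genes in each of the 16 liver libraries, 1 point per library, with the mean and SD of each group of 4; groups are hepAGT-/- and hepAGT+/+ at RT and TN. In hepAGT-/- liver the 4 TN points lie wholly above the 4 RT points for 17 genes and wholly below for Serpine2 and Mup9. The genes were called on these same libraries, so this separation is largely built in.

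Both genes that fell at TN were secreted products. Mup9, a major urinary protein gene, measured 128, 82.3, 131 and 144 CPM at RT and 4.30, 4.01, 2.28 and 3.86 CPM at TN in hepAGT-/- liver. It fell by 5.07 on the log2 scale (SE 0.74, adjusted p 0.031). In hepAGT+/+ liver it measured 223, 189.9, 25.7 and 372 CPM in RT replicates 11, 12, 15 and 18 and 2.99, 0.618, 0.524 and 1.68 CPM in TN replicates 1, 6, 7 and 24, a fall of 7.15 (SE 0.83, adjusted p 0.00842). Serpine2, the protease nexin that inhibits thrombin and plasminogen activators, measured 13.2, 16.4, 13.0 and 8.54 CPM and 6.39, 6.00, 4.76 and 3.54 CPM and fell by 1.31 (SE 0.22, adjusted p 0.0304). In hepAGT+/+ liver it fell by 1.77 (SE 0.23, adjusted p 0.00134), from a mean of 21.3 ± 2.23 to 6.26 ± 1.26 CPM (SD, n = 4).

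The other urinary protein genes were read with the 27 male-biased liver genes, a list of genes higher in livers of male than of female mice. Of the 27, Mup9 passed the test. At an unadjusted p under 0.05, 8 were lower (4.10% over all genes) and none was higher (6.41%), and 24 had a log2 change below 0. Their median log2 change was -0.73, against 0.0063 over all genes tested and -1.06 for the same list in hepAGT+/+ liver. In hepAGT+/+ liver 18 of the 27 were lower at an unadjusted p under 0.05, as were 583 of the 17594 genes tested. Without RT replicate 16 the median in hepAGT-/- liver was -0.52. The list summed to 35400.0 to 47313 CPM at RT and 19607 to 25908 CPM at TN, ranges that did not overlap.

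Of the 11 Mup genes on the list, 10 were below 0, and in 6 all TN libraries lay below all RT libraries (2.90% over all genes). Mup7 measured 8051, 6280.1, 3830.4 and 5236 CPM at RT and 1539, 1785, 1145 and 1659 CPM at TN (log2 -1.93, adjusted p 0.306). Mup1 measured 197, 303, 50.6 and 84.0 CPM and 27.5, 24.9, 11.3 and 18.4 CPM (log2 -2.95, adjusted p 0.149), and the RT values were widely spread. Mup20, which codes for the pheromone darcin, had means of 1775 ± 509 and 1703 ± 488 CPM (SD, n = 4) and a log2 change of -0.06 (adjusted p 0.977), and Mup3 one of -0.16 (adjusted p 0.834). Mup3, Mup7 and Mup20 were picked after their values were seen. Mup genes and pseudogenes such as Mup-ps12 are near-identical copies, so the counting may have split or dropped their reads, and single members are uncertain.

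Other genes with all TN libraries below all RT libraries did not pass the edgeR test but had an adjusted DESeq2 p under 0.05. Csad, which makes the taurine precursor, measured 208, 65.1, 125 and 173 CPM and 39.7, 44.4, 47.1 and 64.8 CPM (log2 -1.54, edgeR adjusted p 0.164). Gstp1, a glutathione transferase that is higher in male liver and has a close copy, measured 601, 656, 416 and 351 CPM and 214, 256, 318 and 221 CPM (log2 -1.0, edgeR adjusted p 0.154). Cyp2j9, an epoxygenase of the cytochrome P450 family, measured 22.7, 22.2, 17.2 and 19.4 CPM and 7.51, 9.20, 10.5 and 10.8 CPM (log2 -1.10, edgeR adjusted p 0.139). Etnppl, the lyase that breaks down phosphoethanolamine, had log2 -1.05, and Susd4, a complement regulator, log2 -1.20. S1pr1, the sphingosine phosphate receptor of endothelium, and Gas1, a membrane protein that arrests growth, had log2 changes of -0.83 and -0.87 with edgeR adjusted p of 0.0775 and 0.0813.

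**Figure D3:**
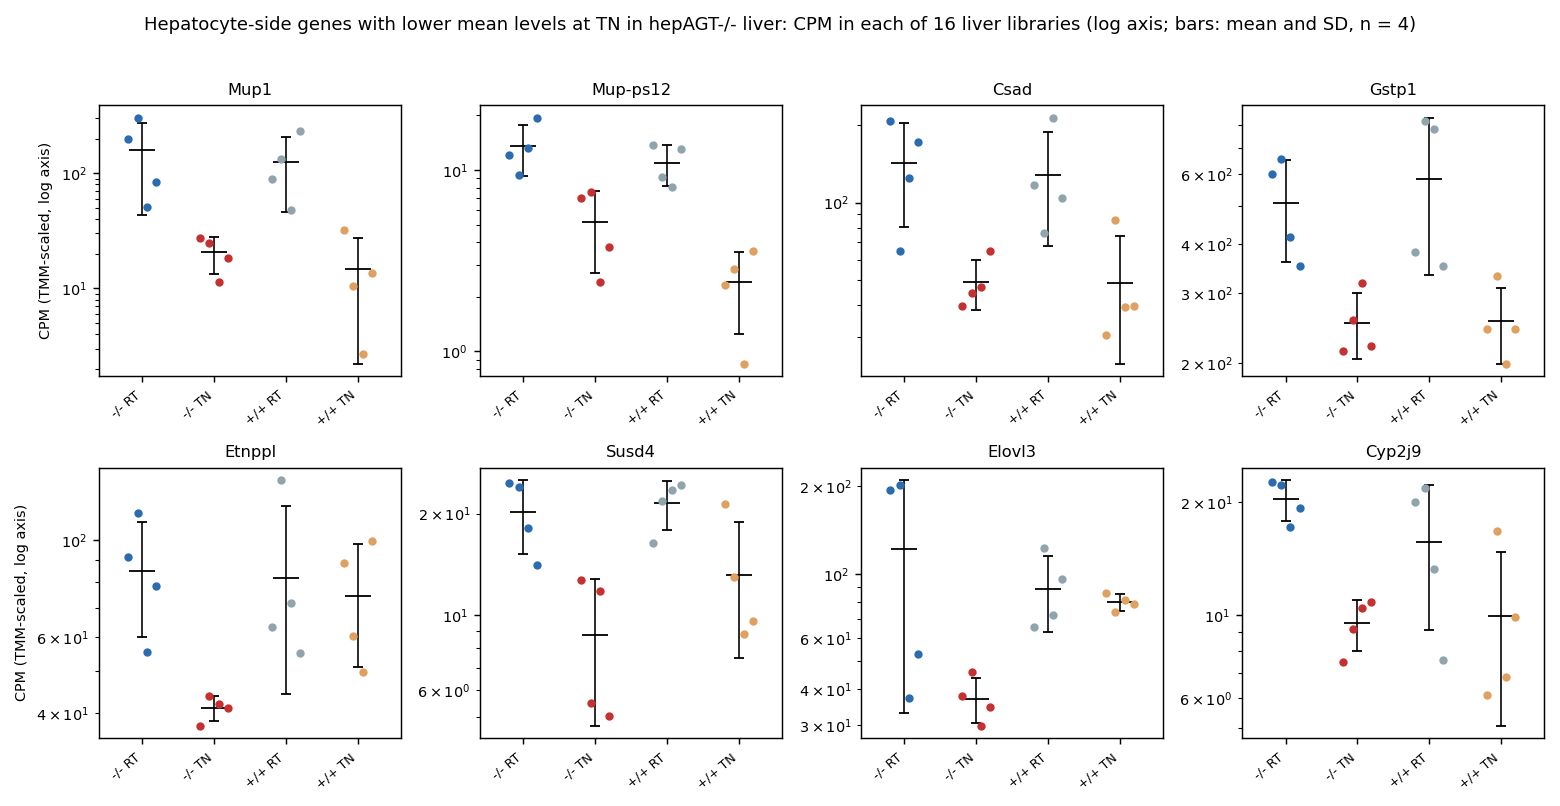
TMM-scaled CPM (log axis) of 8 genes with lower mean levels at TN in hepAGT-/- liver, in each of the 16 liver libraries, with the mean and SD of each group of 4. None of the 8 passed the edgeR test; for Elovl3 the groups overlap, RT replicates 9 and 10 standing at 195 and 202 CPM and replicates 16 and 19 at 37.2 and 53.0 CPM.

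In 4 lists of hepatocyte genes, small negative medians came with no called gene. Bile acid synthesis and transport (22 genes) had a median log2 change of -0.19 and 20 genes below 0. None passed the edgeR test, and 2 were lower at an unadjusted p under 0.05 (4.10% over all genes). Their summed level was 7689 to 7807 CPM at RT and 6136 to 6949 CPM at TN, without overlap. Abcb11, the bile salt export pump, measured 702, 710.3, 438 and 499 CPM and 383, 378, 389.8 and 331 CPM (log2 -0.67, edgeR adjusted p 0.145), and Cyp27a1, the sterol 27-hydroxylase, had means of 549.7 ± 42.2 and 409.7 ± 44.8 CPM (SD, n = 4, log2 -0.42, edgeR adjusted p 0.131). Cyp7a1, the rate-limiting enzyme of bile acid synthesis, ranged from 76.2 to 294 CPM at RT and from 62.0 to 163 CPM at TN (log2 -0.84, adjusted p 0.675, and log2 -0.54 without RT replicate 16). Among 36 cytochrome P450 and phase II enzymes the median was -0.20, with none called; 10 were lower and none higher at p under 0.05 before adjustment. Gluconeogenesis, glycolysis and glycogen (25 genes) had a median of -0.12 and 1 gene lower at that p, Pygl, the glycogen phosphorylase of liver, at log2 -0.46 (edgeR adjusted p 0.138). The 16 hepatocyte markers had a median of -0.15 and none called.

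The medians of the lists of lipid handling lay near that of all genes. The 18 genes of de novo lipogenesis had a median of 0.01 with none called. Without adjustment at 0.05, 1 was higher (6.41% over all genes) and 2 were lower (4.10%). In hepAGT+/+ liver the median was 0.59 and none was called. There 4 of the 18 were higher at an unadjusted p under 0.05, as were 693 of the 17594 genes tested. Fasn, the fatty acid synthase, had means of 742 ± 208 and 571 ± 89.9 CPM (SD, n = 4, log2 -0.38, adjusted p 0.917), and Scd1, the stearoyl-CoA desaturase, a log2 change of 0.12 (adjusted p 0.925). For the interaction of genotype and temperature, the log2 values were -1.34 (SE 0.83, adjusted p 0.789) for Fasn and -0.45 (SE 0.29, adjusted p 0.793) for Scd1, so the genotypes were not shown to differ.

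Of 25 genes of lipid droplets and fatty acid uptake none was called and 6 were higher at an unadjusted p under 0.05 (6.41% over all genes). G0s2, the inhibitor of adipose triglyceride lipase, measured 71.7, 67.4, 79.7 and 91.9 CPM at RT and 318, 139, 163 and 220.3 CPM at TN (log2 1.44, edgeR adjusted p 0.129, DESeq2 adjusted p 0.0123), with every TN library above every RT library. Plin2, which coats lipid droplets, did not overlap either, at 404 ± 61.4 and 531 ± 28.1 CPM (SD, n = 4, log2 0.39, edgeR adjusted p 0.391). Cd36, a fatty acid transporter, had a log2 change of 0.60 and Cidec, which enlarges droplets, one of 1.63, with adjusted p of 0.326 and 0.458. The medians were 0.13 for this list, 0.08 for 30 genes of fatty acid oxidation and ketogenesis and -0.05 for 25 genes of cholesterol synthesis and uptake, none with a called gene. The TN libraries lay wholly above in 3 of the 25 droplet and uptake genes and 5 of the 30 oxidation genes (4.35% over all genes). Of the 30, 3 were higher at an unadjusted p under 0.05 (6.41% over all genes). Sterol efflux and esterification (16 genes) held Soat1 as its 1 called gene and had a median of -0.14.

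Macrophage lists stood above the median of all genes. Of 16 Kupffer cell markers none passed the edgeR test, and 8 were higher (6.41% over all genes) and none lower at an unadjusted p under 0.05. Their median log2 change was 0.82 (-0.33 in hepAGT+/+ liver), or 0.48 without TN replicate 5. C1qa, a chain of complement C1q, measured 36.9, 37.6, 27.8 and 33.1 CPM and 40.6, 77.1, 110.3 and 43.9 CPM (log2 1.01, edgeR adjusted p 0.117), Vsig4, the complement receptor of resident macrophages, had log2 0.99 and Clec4f, the lectin particular to Kupffer cells, log2 0.75, with edgeR adjusted p of 0.152 and 0.189. Of 18 lipid-associated macrophage markers 12 were higher at an unadjusted p under 0.05, with a median of 1.25 (0.05 in hepAGT+/+ liver) and none called. Gpnmb, a lysosomal glycoprotein of lipid-laden macrophages, measured 0.324, 0, 0.257 and 0.0770 CPM and 1.72, 1.86, 6.01 and 1.06 CPM (log2 3.97, edgeR adjusted p 0.154). Trem2, the lipid receptor of these cells, was at 0.522 ± 0.451 and 1.45 ± 0.765 CPM (SD, n = 4), with edgeR adjusted p 0.602. For 15 of 16 monocyte markers tested the median was 1.08, or 0.68 without TN replicate 5, and 8 were higher at that p, none called. Lyz2, the lysozyme of myeloid cells, measured 62.5, 67.6, 42.5 and 64.9 CPM and 64.4, 162, 155 and 101 CPM (log2 1.02, edgeR adjusted p 0.0824).

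Antigen presentation genes had one of the widest shifts of the lists. All 15 markers of MHC class II and dendritic cells had a log2 change above 0, and the median was 1.92 (0.43 in hepAGT+/+ liver). At an unadjusted p under 0.05, 10 were higher (6.41% over all genes). DESeq2 called 7 (2.14% higher over all genes it gave an adjusted p) and edgeR none. In 9 of the 15 the TN libraries lay wholly above (4.35% over all genes). Cd74, the invariant chain of class II, measured 47.2, 66.7, 43.3 and 56.6 CPM at RT and 101, 261, 374 and 73.7 CPM at TN (log2 1.92, edgeR adjusted p 0.095). H2-Aa, a class II chain, measured 17.6, 25.2, 21.6 and 22.5 CPM and 45.0, 125, 189 and 32.4 CPM (log2 2.17, edgeR adjusted p 0.0966). TN replicates 4 and 5 stood far above replicates 2 and 22 in both.

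T and NK cell markers had the highest median of all lists, 2.38, or 2.31 with Ncr1, which had no count at RT, at the bound from 3 counts per library (0.45 in hepAGT+/+ liver). Of 21 listed, 18 were tested, none was called and 10 were higher at an unadjusted p under 0.05 (6.41% over all genes). Levels were low. Cd8a, the coreceptor of cytotoxic T cells, measured 0.194, 0.323, 0.129 and 0.847 CPM and 0.926, 2.67, 7.58 and 0.850 CPM (log2 3.01, edgeR adjusted p 0.195), or log2 2.0 without TN replicate 5. Ccl5, a chemokine of activated T and NK cells, measured 0.518, 1.03, 0.643 and 0.693 CPM and 1.59, 9.36, 25.8 and 1.20 CPM (log2 3.71, edgeR adjusted p 0.0863). Il2rb, a chain of the receptors for interleukins 2 and 15, Slamf7 and Cd40, the costimulatory receptor of antigen-presenting cells, had log2 changes of 2.84, 4.14 and 3.43, with edgeR adjusted p of 0.0855, 0.123 and 0.0763. B and plasma cell markers had a median of 0.66 over 14 tested, with 3 higher at that p and none called, and 9 of 15 neutrophil markers tested had a median of 1.43, or 2.16 without RT replicate 9, with 5 higher and none called. Ly6g, which defines neutrophils, had 0 counts in all 8 libraries.

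Summed marker levels show which livers carried these shifts. MHC class II and dendritic cell markers summed to 118, 163, 136 and 146 CPM at RT and to 251, 709, 991 and 202 CPM at TN. T and NK cell markers summed to 13.0, 13.6, 15.3 and 13.2 CPM and 24.6, 52.7, 92.7 and 17.8 CPM. Kupffer cell markers summed to 826, 887, 682 and 783 CPM and 769, 1248, 1522 and 792 CPM, where TN replicates 2 and 22 lay within the RT range. B cell, neutrophil and T and NK cell sums did not overlap between RT and TN, while monocyte, Kupffer cell and lipid-associated macrophage sums did. Each sum is weighted by its most abundant members. Among neutrophil markers Lcn2, also on the acute-phase list, reached 598 counts in a hepAGT-/- library, against 269 for Csf3r. Among lipid-associated macrophage markers Ctsl reached 17697 and Ctsd 6964 counts, against 83 for Trem2. C6, on the Kupffer cell list at up to 6593 counts, is also on the male-biased list. The monocyte sum had a mean of 1300.1 ± 346 CPM at RT and 1267 ± 189.7 CPM at TN (SD, n = 4). By contrast, 14 of its 15 tested members had a log2 change above 0. Fn1 was by far its most abundant member, at up to 45562 counts in a hepAGT-/- library against 5455 for Lyz2. The monocyte sum thus largely follows Fn1 and does not show whether the other markers rose. How far the number of leukocytes in replicates 4 and 5 makes up the calls was not tested.

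**Figure D4:**
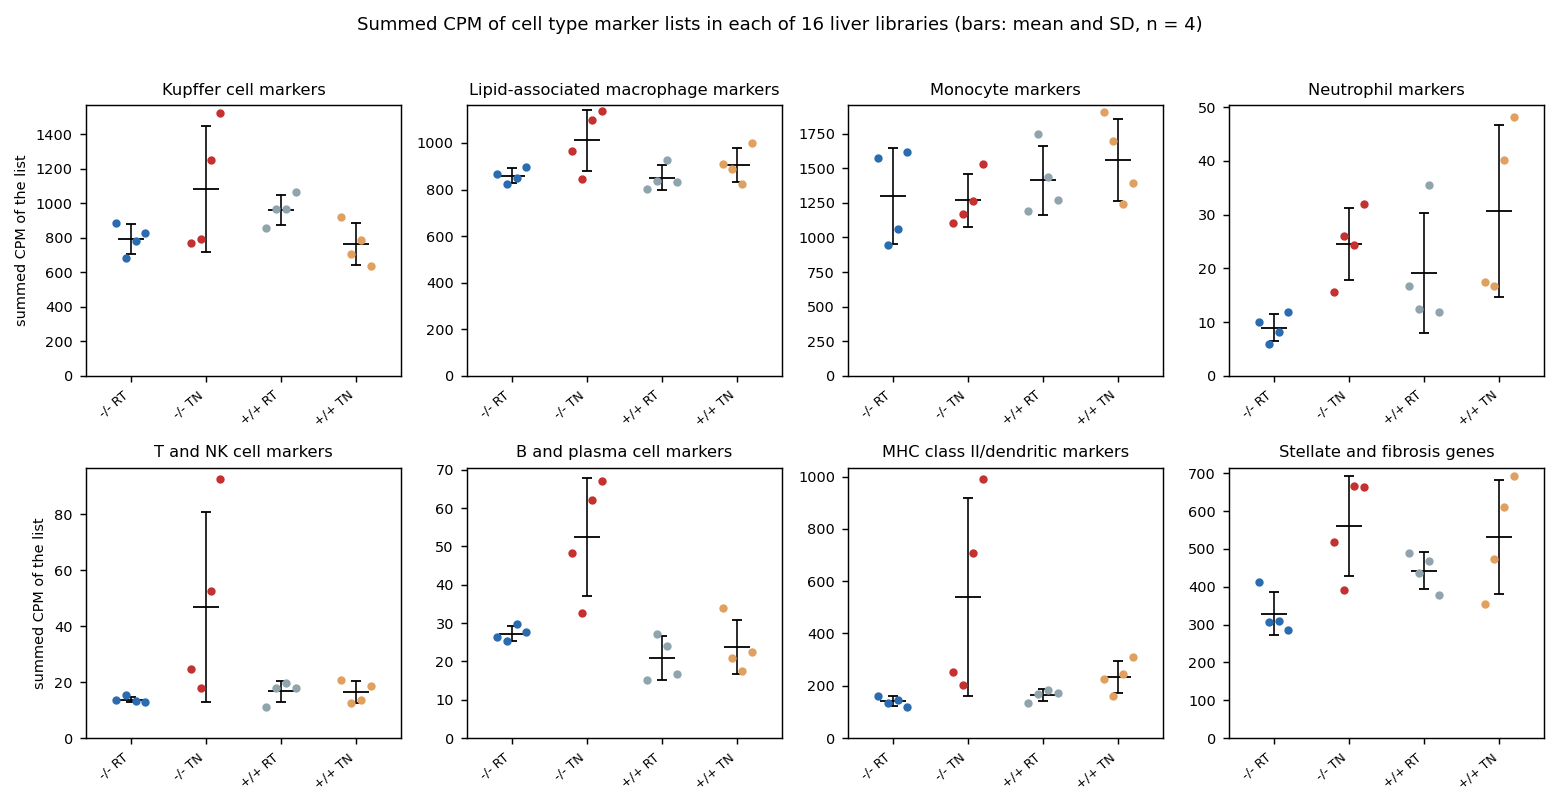
Summed TMM-scaled CPM of 8 marker lists in each of the 16 liver libraries, 1 point per library, with the mean and SD of each group of 4. In hepAGT-/- liver at TN, replicates 4 and 5 are the 2 highest points for Kupffer cell, lipid-associated macrophage, T and NK cell, B cell and MHC class II markers.

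Interferon-stimulated genes also summed highest in TN replicates 4 and 5, at 1432 and 2519 CPM against 825 to 1102 CPM at RT. Of 30 interferon-stimulated genes none was called, and 17 were higher (6.41% over all genes) and none lower at an unadjusted p under 0.05. The median was 0.70 (-0.19 in hepAGT+/+ liver), and in none of the genes did the 2 groups separate. Ifit3, an antiviral protein with a near-identical copy, measured 10.0, 14.3, 11.1 and 7.23 CPM and 18.9, 22.1, 45.6 and 13.6 CPM (log2 1.23, edgeR adjusted p 0.0855). Without TN replicate 5 its log2 change was 0.77 and the median of the list 0.34. Cxcl9, the interferon-induced chemokine that draws T cells, measured 7.67, 9.68, 10.1 and 11.0 CPM and 13.0, 57.8, 138 and 11.2 CPM (log2 2.52, edgeR adjusted p 0.148), with a log2 change of 1.52 without TN replicate 5. Of 29 chemokines and receptors tested, Cmklr1 was called, 14 were higher at an unadjusted p under 0.05 and the median was 1.16, or 0.79 without TN replicate 5.

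Among 21 tested genes of stellate cells and fibrosis all had a log2 change above 0 and Col4a1 was called. At an unadjusted p under 0.05, 13 were higher (6.41% over all genes), and the median was 0.83 (0.36 in hepAGT+/+ liver). In 10 the TN libraries lay wholly above (4.35% over all genes). Vim, the intermediate filament of mesenchymal cells, measured 18.5, 15.8, 15.6 and 19.9 CPM and 25.1, 31.0, 47.2 and 21.8 CPM (log2 0.84, edgeR adjusted p 0.105), and Dcn, the matrix proteoglycan decorin, had means of 92.6 ± 16.4 and 157 ± 43.2 CPM (SD, n = 4, log2 0.77, edgeR adjusted p 0.125). Col1a1, the fibril collagen chain, picked after its values were seen, measured 5.21, 3.23, 4.21 and 3.77 CPM and 8.67, 15.3, 35.8 and 11.4 CPM (log2 2.12, edgeR adjusted p 0.176). Acta2, the actin of activated stellate cells, also picked after its values were seen, was at 1.12 ± 1.10 and 2.85 ± 2.25 CPM (SD, n = 4), with overlapping groups. Of 17 sinusoidal endothelial markers none was called, 8 were higher at that p and the median was 0.41, or 0.27 without TN replicate 4.

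All 25 cell cycle genes had a log2 change above 0, with a median of 1.11 (0.13 in hepAGT+/+ liver). At an unadjusted p under 0.05, 9 were higher (6.41% over all genes), and none was called. Without TN replicate 5 the median was 0.62. Ccnd1, the cyclin of G1, measured 15.3, 21.5, 22.6 and 13.0 CPM and 39.3, 61.7, 86.3 and 26.3 CPM (log2 1.56, edgeR adjusted p 0.0824, DESeq2 adjusted p 0.000178). Mcm6, a subunit of the replicative helicase, measured 2.52, 3.49, 2.28 and 3.93 CPM and 7.54, 9.20, 29.5 and 4.07 CPM (log2 2.05, edgeR adjusted p 0.1), with replicate 5 the highest and a log2 change of 1.19 without it.

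Of 21 acute-phase genes tested, Apcs was called, and 10 were higher (6.41% over all genes) and none lower at an unadjusted p under 0.05. The median was 0.49 (0.15 in hepAGT+/+ liver). Saa1, serum amyloid A, measured 37.8, 37.2, 39.6 and 62.0 CPM at RT and 77.6, 174, 132 and 182 CPM at TN (log2 1.68, edgeR adjusted p 0.0813), and Saa2, its near-identical neighbour, 11.7, 11.7, 14.2 and 23.8 CPM and 28.4, 69.0, 80.5 and 92.9 CPM (log2 2.14, edgeR adjusted p 0.095). Both were at their highest in TN replicate 22. Hpx, which binds haem in plasma and was picked after its values were seen, had means of 2417 ± 193 and 3349 ± 680.2 CPM (SD, n = 4, log2 0.47, edgeR adjusted p 0.316), with no overlap.

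Genes that answer to body temperature were measured as a separate list of 23. None was called, none was higher and 2 were lower at an unadjusted p under 0.05 (4.10% over all genes), and the median was -0.06. The cold-inducible RNA-binding proteins Rbm3 and Cirbp had log2 changes of 0.09 (SE 0.16, adjusted p 0.926) and 0.04 (SE 0.24, adjusted p 0.984). The heat shock gene Hspb1 had one of -0.68 (adjusted p 0.336), with overlapping groups.

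Clock genes divided the RT group. Arntl, which codes for BMAL1, measured 11.0, 13.2, 0.836 and 3.19 CPM at RT and 1.82, 1.99, 2.08 and 2.27 CPM at TN, and Per2, a repressor that peaks in the opposite phase, measured 9.55, 27.3, 97.6 and 65.0 CPM and 47.1, 43.5, 57.2 and 80.4 CPM. RT replicates 9 and 10 were thus high in Arntl and low in Per2, replicates 16 and 19 the reverse, and the 4 TN livers lay between the extremes. Clock followed Arntl, at 50.1, 46.6, 25.3 and 25.7 CPM and 24.5, 23.8, 25.8 and 30.4 CPM. None of the 21 clock genes was called, with 3 lower at an unadjusted p under 0.05 (4.10% over all genes). Elovl3, a fatty acid elongase known to oscillate and on the male-biased list, was also high in replicates 9 and 10, at 195, 202, 37.2 and 53.0 CPM against 38.0, 45.6, 29.9 and 34.7 CPM at TN (log2 -1.72, edgeR adjusted p 0.154), and Hnf4a, a hepatocyte transcription factor, measured 515, 511, 431 and 338 CPM and 291, 268, 353 and 363 CPM. The mean chi-square per gene, a distance between libraries, was 44.2 for RT replicates 9 and 10 and 48.4 for 16 and 19. Between these pairs it was 89.8 to 127.3. Abcb11 and Gstp1, described above, were also higher in RT replicates 9 and 10 than in 16 and 19, while Csad did not divide this way. The number of genes that divide so was not counted. The hour of collection is not given in the sources used here, and the part of clock phase in these differences was not tested.

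Of 15 tested genes of the renin-angiotensin system, none was called, and the median was 0.04. At an unadjusted p under 0.05, 1 was higher (6.41% over all genes) and 2 were lower (4.10%). Ace, the angiotensin-converting enzyme, measured 0.453, 0.871, 0.322 and 0.693 CPM at RT and 1.72, 2.87, 2.56 and 1.27 CPM at TN (log2 1.84, edgeR adjusted p 0.335), a low level without overlap. Enpep, the aminopeptidase that shortens angiotensin II, measured 86.4, 80.3, 88.5 and 76.2 CPM and 66.9, 69.2, 70.8 and 69.6 CPM (log2 -0.26, edgeR adjusted p 0.462). Agtr1a, the type 1 receptor, picked after its values were seen, had means of 49.0 ± 8.42 and 39.4 ± 4.52 CPM (SD, n = 4, log2 -0.31, edgeR adjusted p 0.477).

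In hepAGT+/+ liver the same contrast called 4 genes (0.0227%), all lower at TN: Serpine2, Mup9, Cela1 and Mup-ps13. That count was 2 without TN replicate 6 and 9, 14, 7 and 23 without RT replicate 11, RT replicate 15, TN replicate 1 and TN replicate 24. Of the 20 genes called in hepAGT-/- liver, 2 were also called in hepAGT+/+ liver, and 7 had an unadjusted p under 0.05 there. Over all 17594 genes tested, 1276 had such a p in hepAGT+/+ liver. The sign was the same in 15 of the 20, and the share of all genes with the same sign was not counted. The contrasts share no library, and across the 17594 genes their log2 changes had a Pearson r of 0.108 and a Spearman rho of 0.094; genes are not independent replicates, and no p is given.

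The test of whether the temperature effect differed between genotypes called no gene by edgeR (0%), with the lowest adjusted p at 0.399, 1290 genes at an unadjusted p under 0.05 and 17 genes by DESeq2. Of the 20 called genes, 16 had an unadjusted interaction p under 0.05, but the genes were chosen for their change in hepAGT-/- liver, which is one side of the interaction, so a high share is built in. Cmklr1 had an interaction log2 of 2.39 (SE 0.45, adjusted p 0.399) and means of 3.70 ± 0.853 and 2.47 ± 0.860 CPM in hepAGT+/+ liver (SD, n = 4). Wfdc17 had one of 1.65 (SE 0.34, adjusted p 0.399), with hepAGT+/+ means of 13.6 ± 2.47 and 11.4 ± 2.84 CPM. Col4a1 had one of 0.36 (SE 0.20, adjusted p 0.744), and its hepAGT+/+ means were 26.9 ± 3.50 and 39.2 ± 6.68 CPM. Some of the called genes stood lower at RT in hepAGT-/- than in hepAGT+/+ liver, chosen here after their values were seen. This comparison uses the hepAGT-/- RT libraries that also entered the calls, so its p values are no separate support. Smpd3 had hepAGT+/+ means of 13.9 ± 2.63 CPM at RT and 24.6 ± 4.68 CPM at TN (SD, n = 4), and the log2 difference between genotypes at RT was -1.57 (edgeR adjusted p 0.00337). Cntnap1 had means of 7.91 ± 1.54 and 16.0 ± 7.96 CPM there, with a difference at RT of -2.01 (edgeR adjusted p 0.0129). No called gene is shown to respond in one genotype alone.

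**Figure D5:**
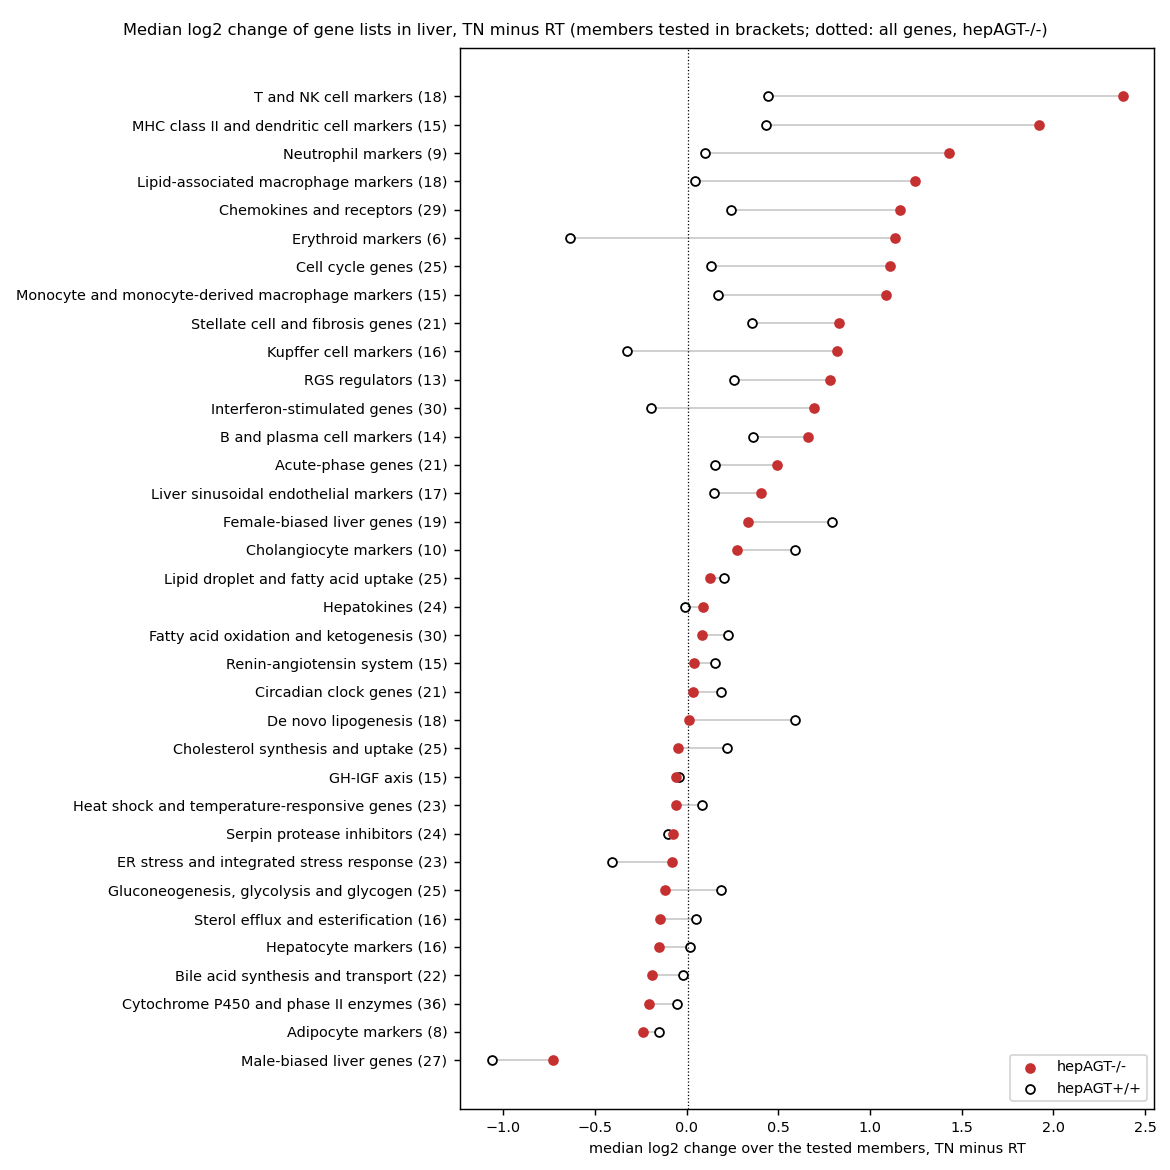
Median log2 change (TN minus RT) of 35 gene lists in hepAGT-/- liver (filled) and hepAGT+/+ liver (open), with the number of members tested in brackets and the median of all genes in hepAGT-/- liver as a dotted line. T and NK cell markers (2.38) and MHC class II and dendritic cell markers (1.92) are the 2 highest in hepAGT-/- liver, and male-biased liver genes are the lowest in both genotypes (-0.73 and -1.06).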

How the data were processed

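RNA of snap-frozen liver was sequenced as paired-end mRNA libraries (NEBNext Ultra, NovaSeq), per the labels' protocols. The values are raw counts per gene and library as deposited by the authors. fastp, STAR 2.6.1d, featureCounts 1.5.0-p3, GRCm38 and mm10 are named in the submitters' processing notes; the annotation release and strand setting are not given in the sources used here. Of 56748 Ensembl identifiers, 52073 (91.8%) had a symbol, and these held at least 96.3% of each library's counts.

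The 16 liver libraries (23.7 to 36.5 M counts) were fitted together in R 4.3.3 with edgeR 4.0.16: TMM scaling, filterByExpr (minimum count 10), 1 mean per group, robust quasi-likelihood F tests, two-sided, Benjamini-Hochberg adjustment over 17594 genes. SE is the log2 change divided by the root of F. DESeq2 1.42.0, RLE scaling, other filters, a fit to the 8 libraries of a genotype and leaving out each library were alternatives. The procedure was tested on simulated data. Replicates differed beyond sampling noise (mean chi-square per gene 44.2 to 271.9). The floor was 3 counts per library.

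Genes were named by rule: all called genes with a symbol; up to 12 per direction with the largest change among those with a mean of at least 1 CPM, no overlap, an unadjusted p under 0.005 and a DESeq2 adjusted p under 0.05; from each list the called members and up to 3 with the lowest p; and a fixed set of 22. The comparison, the 37 lists and the named genes were chosen with earlier results of these data known, and no list was tested as a set. Adipose libraries were not analysed here, and 1 called gene is not reported here. Promoters come from RefSeq (GRCm38.p6).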

Additional observations from a re-analysis of the deposited data

Results flagged for a closer look

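In 396 groups of 4 libraries (named genes and marker sums at RT and at TN in hepAGT-/- liver), 18 held a library whose gap to its nearest neighbour exceeded 0.829 of the group's range, Dixon's 95% critical value; chance gives this in about 1 in 20 groups. At TN, replicate 5 was the highest library for Gpnmb (6.01 CPM), Myo1g (11.0 CPM), Cd22 (5.73 CPM) and Psat1 (2.45 CPM) and the lowest for the summed sterol efflux and esterification genes (14114 CPM). Replicate 4 was the highest for Rgs5 (55.9 CPM) and replicate 22 for the summed female-biased liver genes (972 CPM). At RT, replicate 10 was the highest for Syk (7.20 CPM) and for Tnni2 (0.323 CPM, the others at 0) and the lowest for Abcd2 (6.97 CPM) and Vnn1 (27.0 CPM). Replicate 16 was the highest for Atf3 (3.51 CPM), the summed female-biased liver genes (857 CPM) and the summed GH-IGF axis genes (3652 CPM), and the lowest for Vsig4 (12.6 CPM). Replicate 19 was the highest for Saa1 (62.0 CPM) and for Retn (2.35 CPM), an adipocyte gene, and replicate 9 was the lowest for H2-DMb1 (0.647 CPM).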

How the results depend on the processing

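In hepAGT-/- liver the 20 calls became 22 with RLE scaling and 21 with at least 1 CPM in 4 libraries. They became 77 without a filter on low counts (65 higher, 12 lower), 362 with DESeq2 (310 higher, 52 lower) and 13 when only the 8 libraries of the genotype were fitted (7 higher, 6 lower, 5 of them among the 20). Leaving out 1 library gave 0 to 153 calls. In hepAGT+/+ liver the 4 calls became 10 without a filter, 75 with DESeq2, 8 with only its 8 libraries, and 2 to 23 with 1 library left out. The interaction stayed at 0 calls except with DESeq2, which gave 17. No named gene with a called change reversed under any alternative run. The medians of all 37 lists moved by less than the spread between libraries under RLE scaling and DESeq2. With 1 library left out, medians near 0 changed sign in some lists, such as de novo lipogenesis (-0.21 to 0.18) and cholesterol synthesis and uptake (-0.18 to 0.15). No paired analysis was possible because the RT and TN groups share no replicate number. With 4 libraries a group, genes near 1 CPM rest on few counts.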

Other observations

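Some lists outside the comparisons above also held values to look at. Of 24 serpin protease inhibitors tested, 6 were higher (6.41% over all genes) and 4 lower (4.10%) before adjustment (p under 0.05), with Serpine2 called lower. Serpina3g, a serpin of activated T cells and macrophages, measured 3.24, 2.58, 3.47 and 2.69 CPM at RT and 5.19, 13.0, 16.2 and 4.82 CPM at TN (log2 1.71, edgeR adjusted p 0.0735), highest in replicates 4 and 5. Serpinh1, the collagen chaperone, measured 4.79, 4.20, 11.0 and 6.00 CPM and 10.6, 15.1, 16.7 and 18.9 CPM (log2 1.24, edgeR adjusted p 0.177), highest in replicate 22.

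Igfbp3, the main carrier of IGF1 in plasma, measured 6.86, 19.8, 11.5 and 10.3 CPM at RT and 22.2, 29.0, 23.9 and 25.8 CPM at TN (log2 1.05, edgeR adjusted p 0.0914), without overlap, while Igf1 itself had means of 413 ± 76.4 and 388 ± 26.7 CPM (SD, n = 4, log2 -0.09, adjusted p 0.939). Fgf21, a hormone of the stressed liver, was low at 1.75, 2.65, 1.54 and 0.577 CPM and 4.14, 3.13, 3.79 and 4.18 CPM (log2 1.22, edgeR adjusted p 0.508), also without overlap. Srp54b, a signal recognition particle gene with near-identical copies, measured 4.63, 7.46, 2.12 and 0.731 CPM and 0.0331, 0.196, 0.0855 and 0.0708 CPM (log2 -5.22, edgeR adjusted p 0.137), and its hepAGT+/+ means were 1.14 ± 1.87 and 3.12 ± 2.15 CPM (SD, n = 4). Cfd, complement factor D, ranged from 5.20 to 36.2 CPM at RT and from 25.8 to 157 CPM at TN (log2 2.24, edgeR adjusted p 0.202), with groups that overlap. It is also an adipocyte gene, and the adipocyte markers Adipoq, Plin1 and Retn were at their highest in RT replicate 19.

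Of 13 RGS regulators tested, Rgs2 was called, and the median log2 change was 0.78, or 1.31 without RT replicate 16. The 19 tested female-biased liver genes had a median of 0.33 (0.79 in hepAGT+/+ liver), which was 0.18 without RT replicate 9 and 0.52 without RT replicate 16, with none called in hepAGT-/- liver. Medians were -0.08 for 23 genes of ER stress (-0.41 in hepAGT+/+ liver), 0.09 for 24 hepatokines and 0.27 for 10 cholangiocyte markers (0.076 without TN replicate 4), none with a called gene. Of 11 erythroid markers 6 were tested, with a median of 1.14 (-0.64 in hepAGT+/+ liver) and none called. In 3 of the 6 the TN libraries lay wholly above (4.35% over all genes). The summed level of the list overlapped, at 93.4 to 111 CPM at RT and 95.7 to 162 CPM at TN.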
